A study of Mus musculus with 20 samples.

Results

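Homeostatic microglia identity is described here by 9 genes, P2ry12, Tmem119, Cx3cr1, Csf1r, Sall1, Siglech, Gpr34, P2ry13 and Aif1, out of 49671 gene identifiers in the tables. The genes were taken by name as a fixed list, and 9 of 9 were among the 18427 genes with enough counts to be tested. Bulk RNA sequencing was done on single frozen hippocampi from 20 adult male wild-type mice aged 10 to 12 weeks, with 5 mice in each of 4 groups. The series concerns what cancer immunotherapy does to the brain.

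Control mice carried no tumour and received isotype-matched antibody. ICI mice, named for immune checkpoint inhibitors, carried no tumour and were given anti-CTLA-4 at 1 mg per dose, 3 doses a week, together with anti-PD-1 at 200 µg per dose, 2 doses a week. Melanoma mice had D4M-3A.UV2 cells, a mouse melanoma line, injected into the skin on both sides with 500000 cells per injection, and got isotype antibody after 1 week of engraftment. Melanoma plus ICI mice had the same tumour and the same antibody pair, for which 3 weeks of treatment are stated. All antibodies were given into the peritoneum, and brains were collected at 72 hours from the final dose. The tumour grew in the skin, so the hippocampus was not the tumour site. Each library is 1 mouse, and p-values describe the spread between mice.

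Microglia are the brain's resident macrophages, seeded in the embryo and maintained by local self-renewal. In the undisturbed brain they express a set of receptors that sense ADP, lipids, neuronal fractalkine and growth factors, under transcription factors that include SALL1 and PU.1. Many of these genes are known to go down when microglia become activated, which is why they are called homeostatic. Bulk tissue mixes microglia with all other cells, and in it fewer microglia and less RNA per microglial cell cannot be told apart.

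Promoter sequences were searched for elements known from myeloid genes, since the members share a cell type. They are printed for the members whose window holds a searched motif and for Siglech, whose window holds none. RefSeq entries for build GRCm38.p6, each covering 250 bases before and 50 after a transcription start, matched 6 of the 9 genes; Tmem119, Csf1r and Gpr34 had none. AGGAAGT, the core bound by PU.1-type factors, occurs on either strand in 9.35% of 32851 promoters of 300 bases. The composite element of ETS and IRF factors, GGAA and then GAAA after 2 free bases, occurs in 2.72% and can overlap the first motif. A MEF2-type element, CTA and TAG around 4 free bases, reads the same on both strands and occurs in 3.69%. Capitals mark the motif in each sequence below, which is written 5′ to 3′ on the gene's strand. P2ry12 (chr3:59263020-59263049, minus strand) has AGGAAGT at position -52 from its start, Cx3cr1 (chr9:120068344-120068373, minus strand) has the MEF2-type element at -67, and Sall1 (chr8:89042863-89043112, minus strand, upstream of 1 of its starts) has AGGAAGT at -181. Only 30 bases are given for P2ry12 and Cx3cr1, because their windows lie inside exons of other annotated transcripts. The Siglech window is chr7:55767934-55768177 on the plus strand. The composite element was found in 0 of the 6 genes. A match describes letters and is no evidence of binding.
P2ry12: aagctaacaagaAGGAAGTtccccagtgac
Cx3cr1: gtcacagcatCTAAAGATAGggtaccacac
Sall1: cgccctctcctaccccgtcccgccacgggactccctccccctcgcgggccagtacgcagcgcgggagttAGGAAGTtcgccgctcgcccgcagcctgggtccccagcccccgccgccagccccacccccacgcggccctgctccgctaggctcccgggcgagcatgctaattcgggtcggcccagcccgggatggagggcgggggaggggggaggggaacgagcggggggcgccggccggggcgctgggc
Siglech: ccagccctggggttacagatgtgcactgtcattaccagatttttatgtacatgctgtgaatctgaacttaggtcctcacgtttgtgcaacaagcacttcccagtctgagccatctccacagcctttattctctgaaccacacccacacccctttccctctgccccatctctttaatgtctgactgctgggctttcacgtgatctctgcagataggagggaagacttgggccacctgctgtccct

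Library totals lay between 21990624 and 25735149 counts, and levels are counts per 1000000 (CPM) of the TMM-scaled total, TMM being edgeR's correction for library composition. Replicate 4 of the control group and replicate 1 of the melanoma plus ICI group stood apart from the other libraries in their dependence on gene length. Expression changed by -0.11 and -0.07 on the log2 scale per doubling of gene length in these 2 libraries, against -0.01 to 0.04 in the other 18, so short genes read relatively high in them. Their summed level of oligodendrocyte precursor markers was 98.6 and 99.1 CPM, below the 119 to 170 CPM of the rest. Values without them are given for many of the results that they moved. Marker lists showed neurons (4509 to 6148 CPM summed over 5 genes), astrocytes (822 to 1037 CPM) and dentate gyrus granule cells (40.8 to 651 CPM) in every library. Dentate gyrus markers had median sums of 301 CPM (control), 308 CPM (ICI), 179 CPM (melanoma) and 138 CPM (melanoma plus ICI). How much of each library was hippocampus was not measured. The library numbers in the sample labels ran in separate blocks in 6 of 6 pairs of groups, and a batch that followed them cannot be told apart from the groups.

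Per kilobase of gene length, which allows levels of different genes to be compared, Csf1r was the most abundant of the 9 genes. It stood at 16.9 ± 1.29 CPM per kb (SD, n = 20), above P2ry12 in 20 of 20 libraries. P2ry12 (9.25 ± 1.162), Tmem119 (8.51 ± 0.920) and Cx3cr1 (8.26 ± 0.759 CPM per kb) formed a middle group whose neighbours did not differ beyond their spread. P2ry12 exceeded Tmem119 in 15 libraries of 20, and Tmem119 exceeded Cx3cr1 in 12. A clear step followed from Cx3cr1 to Sall1 (4.53 ± 0.574 CPM per kb), which held in 20 of 20 libraries. Gpr34 (3.46 ± 0.753), P2ry13 (3.24 ± 0.476) and Siglech (2.97 ± 0.305 CPM per kb) overlapped each other, and Sall1 exceeded Gpr34 in 18 libraries with SD ranges that met. Aif1 was lowest at 2.11 ± 0.432 CPM per kb, below Siglech in 20 of 20. Csf1r ranked at the 82.6th percentile and Aif1 at the 37.8th percentile of all tested genes on this scale.

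Summed over the 9 genes, the level was 220 ± 9.98 CPM for control mice, 215 ± 9.10 for ICI mice, 215 ± 3.81 for melanoma mice and 211 ± 15.9 CPM for melanoma plus ICI mice (SD, n = 5 each). The group means lay closer together than the SD of the melanoma plus ICI group, whose libraries ranged from 193 to 235 CPM. Spread between mice differed from gene to gene. The coefficient of variation over 20 libraries was smallest for Csf1r (7.67%), Cx3cr1 (9.19%), Siglech (10.3%) and Tmem119 (10.8%). It was largest for Gpr34 (21.7%) and Aif1 (20.5%), the other 3 lying between 12.6% and 14.7%. Without control replicate 4 the value for Gpr34 was 12.8% and that for P2ry12 went from 12.6% to 8.54%, while Aif1 (15.7%) and P2ry13 (15.1%) then varied most. Counting error alone gives 2.27% for Csf1r, 7.68% for Gpr34 and 11.5% for Aif1. What makes up the rest of the spread between libraries was not tested. The plot of levels by library shows all 9 genes.

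**Figure D1:**
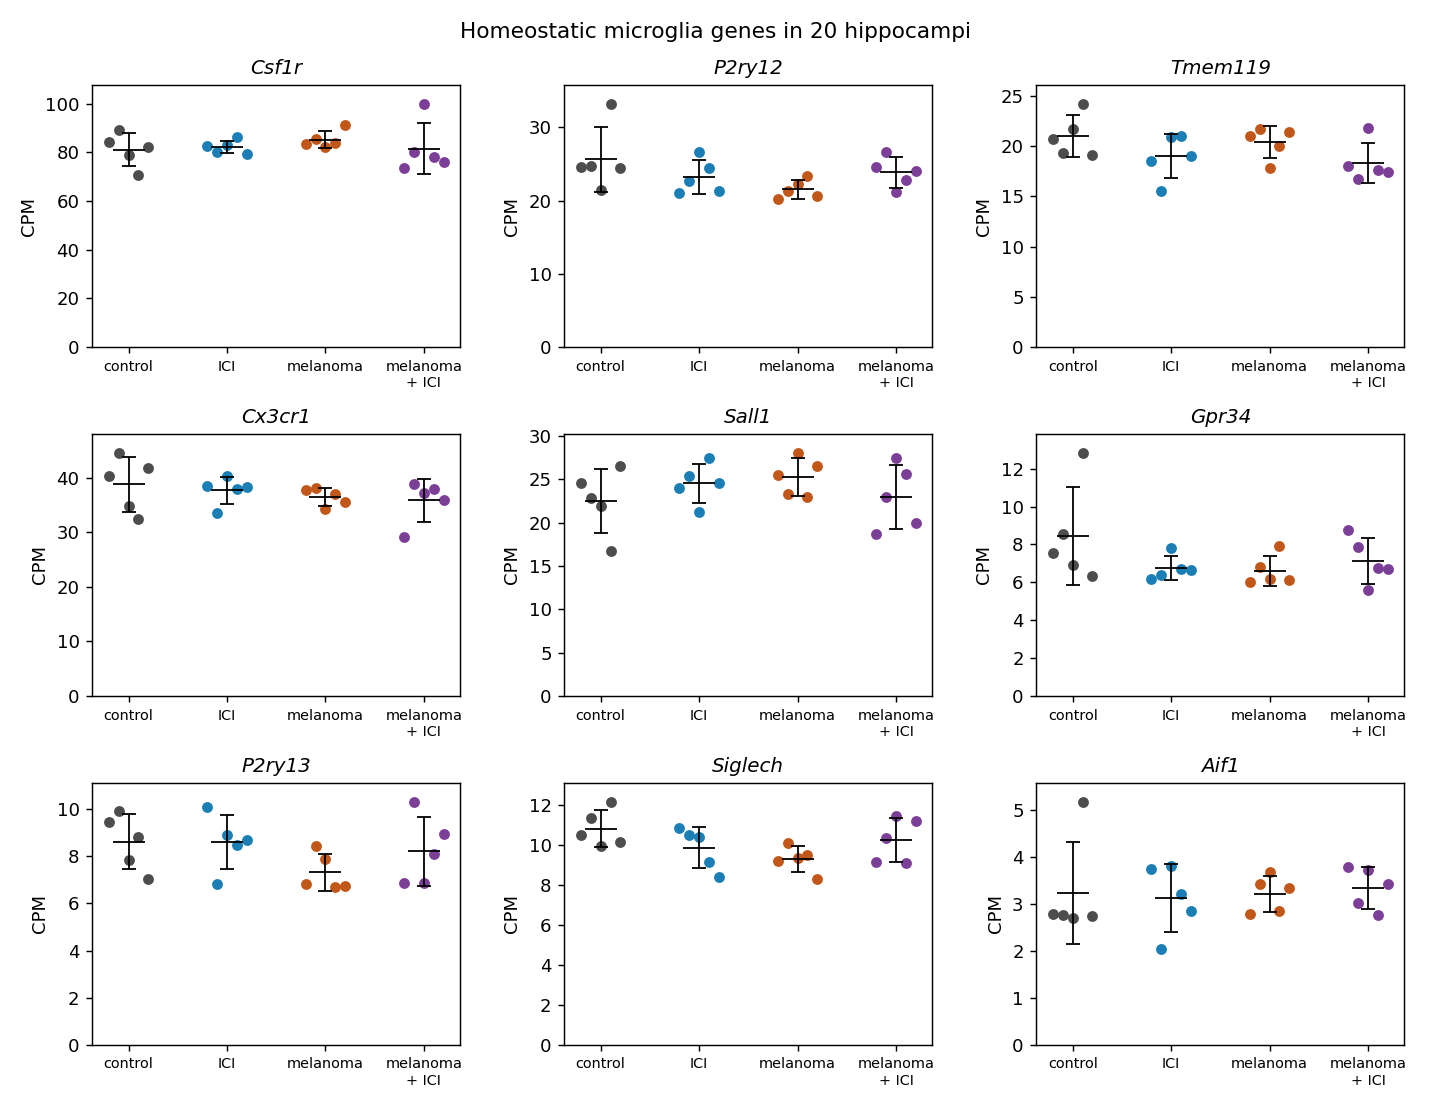
Level of each gene in counts per 1000000 (CPM, TMM-scaled, linear axis from 0) in the 5 libraries of each group; each point is 1 mouse, the horizontal line is the group mean and the bars are the SD. Points of all groups overlap for all 9 genes, and the control group holds a single high point for P2ry12 (33.1 CPM), Gpr34 (12.8 CPM) and Aif1 (5.17 CPM), which is the same library, replicate 4.

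None of the 9 genes changed in any of 6 comparisons by edgeR's quasi-likelihood test at a Benjamini-Hochberg adjusted p of 0.05. The comparisons were ICI against control, melanoma against control, melanoma plus ICI against control, against melanoma and against ICI, and the interaction, which asks by how much the effect of ICI with a tumour exceeded its effect without one. The background was the same, since 0 of 18427 genes (0%) passed in each of the 6. At an unadjusted p under 0.05, melanoma against control held 3 members, all 3 lower in melanoma, beside 5.11% of all genes in either direction and 2.41% in the lower direction. ICI against control held 0 members at that level (background 5.23%), as did melanoma plus ICI against control (2.38%), against melanoma (5.5%) and against ICI (8.63%), and the interaction (10.3%). These counts of 0 depended on the setting, reaching 1 for ICI against control (3 of 29 alternatives), 1 for melanoma plus ICI against control (8 of 29), 2 against melanoma (3 of 29) and 2 for the interaction (11 of 28), with 0 against ICI in 29 of 29. The smallest adjusted p of a member was 0.766 for ICI against control, 0.877 for melanoma against control, 1.00 for melanoma plus ICI against control, 0.825 against melanoma, 0.783 against ICI and 0.487 for the interaction. DESeq2 and limma voom also called 0 of the 9 genes in all 6 comparisons.

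Between pairs of groups, the libraries of 1 group lay wholly above or below those of the other for 0 of the 9 genes. Among all tested genes, such a separation was seen for 0.885% (ICI against control), 1.04% (melanoma against control), 0.304% (melanoma plus ICI against control), 1.54% (against melanoma) and 1.45% (against ICI). Fold changes of the members were small. The median log2 fold change was -0.05 for ICI against control (7 of 9 genes below 0), -0.09 for melanoma against control (7 of 9) and -0.08 for melanoma plus ICI against control (6 of 9). Over all tested genes these medians were -0.01, -0.01 and 0.00, with 52%, 52% and 49.3% of genes below 0. These 3 comparisons share the control libraries. With tumour present, ICI gave a median of 0.06 (4 of 9 below 0, all genes 0.02 and 46.5%). Melanoma plus ICI against ICI gave -0.01 (5 of 9, all genes 0.02 and 45%), and the interaction gave 0.10 (3 of 9, all genes 0.02 and 47.2%). Single libraries moved these medians. Leaving out each in turn gave -0.13 (without ICI replicate 3) to -0.0036 (without ICI replicate 2) for ICI against control, and -0.15 (without control replicate 4) to -0.07 for melanoma against control. For melanoma plus ICI the range was -0.15 (without its replicate 2) to -0.04 (without control replicate 4) against control, 0.01 to 0.12 against melanoma and -0.03 to 0.0077 against ICI. Without both libraries set apart, melanoma plus ICI had a median of -0.0056 against control and 0.03 against melanoma. The median was then -0.15 for melanoma against control and 0.15 for the interaction. Without ICI replicate 2 the interaction median was -0.013, and without ICI replicate 3 it was 0.19. The plot of fold changes shows each gene with its interval.

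**Figure D2:**
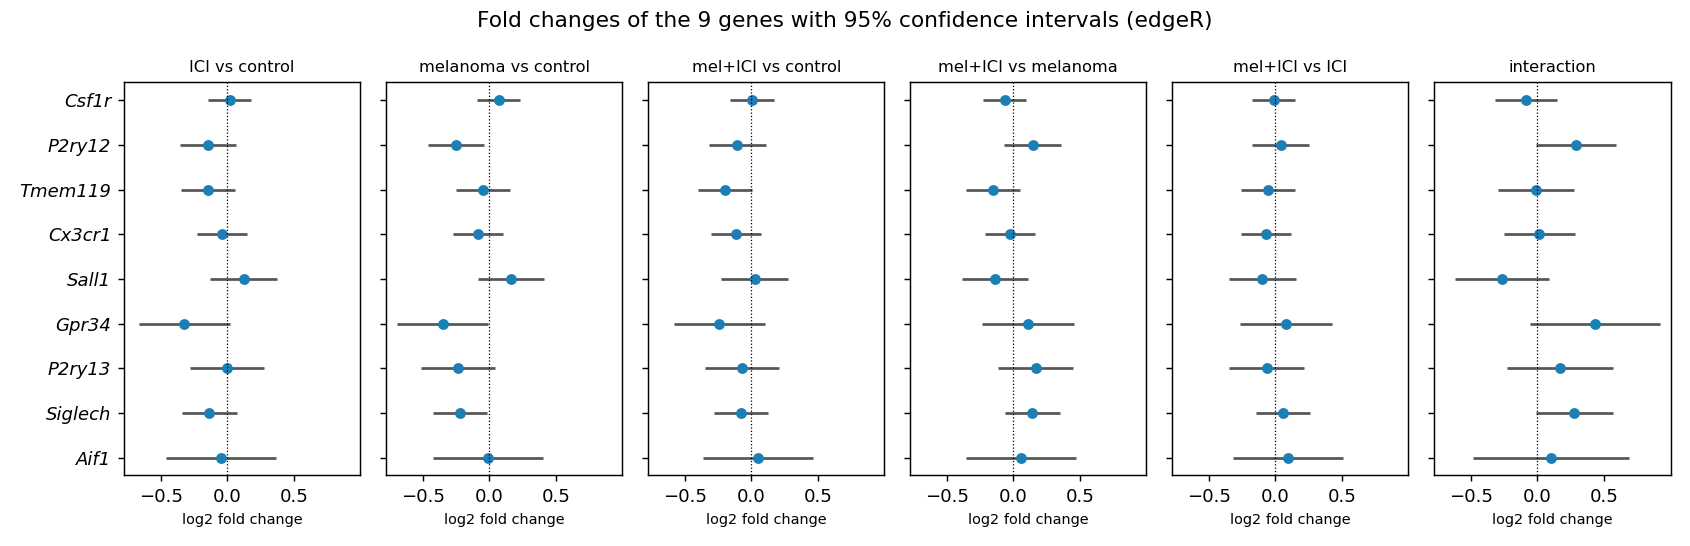
Log2 fold change (horizontal axis) of each gene in the 6 comparisons, with points for edgeR's estimate and lines for the 95% confidence interval. Intervals exclude 0 only for P2ry12, Siglech and Gpr34 in melanoma against control, before adjustment for 18427 genes.

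P2ry12, an ADP receptor through which microglia direct their processes to injury, lies on chr3:59216272-59262871, minus strand. Control replicates 1 to 5 measured 24.6, 24.7, 21.4, 33.1 and 24.4 CPM, and ICI replicates 20.98, 22.6, 26.6, 24.5 and 21.3 CPM. Melanoma replicates measured 20.2, 21.2, 22.3, 23.4 and 20.6 CPM, and melanoma plus ICI replicates 24.6, 26.6, 21.1, 22.7 and 24.0 CPM. The melanoma libraries were the lowest and tightest group (21.5 ± 1.29 CPM, SD, n = 5) and control the highest (25.6 ± 4.41), but control replicate 3 lay among the melanoma values. Melanoma against control gave a log2 fold change of -0.25 (SE 0.10, 95% interval -0.46 to -0.04, unadjusted p = 0.0232, adjusted p = 0.877 by edgeR's quasi-likelihood test). Without control replicate 4 it was -0.15 (unadjusted p = 0.0890 in edgeR), and with each library's length trend removed -0.20 (unadjusted p = 0.0277 in edgeR). Its interaction was 0.29 (SE 0.14, unadjusted p = 0.0579 in edgeR). It was 0.19 (SE 0.11, unadjusted p = 0.110 in edgeR) without control replicate 4, 0.19 with the length trend removed and 0.16 with 1 surrogate variable. Its unadjusted p was under 0.05 in limma voom. The same held in edgeR without control replicate 3, ICI replicate 3, melanoma replicate 4 or melanoma plus ICI replicate 3. P2ry12 shares 9 exon bases (0.353% of its exons) with Med12l on the other strand.

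P2ry13, a second ADP receptor next to P2ry12 on chr3:59207892-59210882, stood at 9.44, 9.91, 7.84, 8.81 and 7.06 CPM in control and 10.1, 6.84, 8.91, 8.48 and 8.71 CPM in ICI. Melanoma libraries gave 6.81, 8.45, 7.88, 6.70 and 6.73 CPM, and melanoma plus ICI libraries 6.86, 10.3, 6.89, 8.09 and 8.94 CPM. The lowest 3 of the melanoma values lay below every control and ICI library, and the other 2 lay among them. Melanoma (7.31 ± 0.804 CPM) against control (8.61 ± 1.17 CPM, SD, n = 5 each) gave -0.24 on the log2 scale (SE 0.13, unadjusted p = 0.0946, adjusted p = 0.877 in edgeR).

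Gpr34, a receptor for lysophosphatidylserine on chrX:13632089-13640858, had the widest spread with control replicate 4 included. In control mice it measured 7.56, 8.55, 6.93, 12.8 and 6.36 CPM, and in ICI mice 6.18, 6.40, 7.81, 6.71 and 6.67 CPM. In melanoma mice it measured 6.01, 6.83, 6.19, 7.93 and 6.12 CPM, and with melanoma plus ICI 8.79, 7.86, 5.61, 6.75 and 6.72 CPM. Control replicate 4 was the highest of the 20 libraries, and the highest melanoma plus ICI value was replicate 1, the other library set apart by gene length. Melanoma (6.62 ± 0.801 CPM) against control (8.44 ± 2.58 CPM) gave -0.35 (SE 0.16, 95% interval -0.69 to -0.01, unadjusted p = 0.0463, adjusted p = 0.877 in edgeR). This moved to -0.16 (unadjusted p = 0.244 in edgeR) without control replicate 4 and to -0.27 (unadjusted p = 0.0595 in edgeR) with the length trend removed. At 2090 bases Gpr34 is the second shortest of the 9 genes, after Aif1 at 1532 bases.

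Siglech, a sialic acid-binding lectin on chr7:55768178-55778925, also marks plasmacytoid dendritic cells. Its control values were 10.5, 11.3, 9.93, 12.1 and 10.1 CPM and its ICI values 10.8, 10.5, 10.4, 9.14 and 8.40 CPM. Melanoma values were 9.21, 10.1, 9.31, 9.50 and 8.29 CPM, and melanoma plus ICI values 9.16, 10.3, 11.5, 9.08 and 11.2 CPM. A single melanoma library reached into the control range, at 10.07 CPM against a lowest control of 9.93 CPM. Melanoma (9.28 ± 0.644 CPM) against control (10.8 ± 0.911 CPM) gave -0.22 (SE 0.10, 95% interval -0.42 to -0.01, unadjusted p = 0.0369, adjusted p = 0.877 in edgeR), and -0.18 (unadjusted p = 0.0756 in edgeR) without control replicate 4. Of the plasmacytoid dendritic cell markers, Klk1 had 38 counts and Ly6d 8 counts over all 20 libraries, while Ccr9 (223 counts) and Cox6a2 (1453 counts) were detected in each library. That list's summed level of 413 to 515 CPM came mainly from Pacsin1, which neurons also express, and the part of these cells in the Siglech level was not tested.

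The count of 3 lower members in melanoma thus depended on single libraries. It was 0 without control replicate 4 and 1 without control replicate 2, melanoma replicate 1 or melanoma replicate 5, against 4 without control replicate 5. Without both libraries set apart none of these 3 genes was under 0.05 (unadjusted p of 0.0870 for P2ry12, 0.0619 for Siglech and 0.204 for Gpr34 in edgeR), and Cx3cr1, not among them before, was, at -0.15 (unadjusted p = 0.0429 in edgeR). Limma voom with quality weights gave 0. Control replicate 4 also differed from all melanoma libraries in length slope, and with the length trend removed the count was 2. The sum of 6 striatal markers ran from 101.8 to 1002 CPM in melanoma (median 420 CPM) against 108 to 136 CPM in control. Over 20 libraries its r was -0.42 with P2ry12, -0.43 with Gpr34 (adjusted permutation p = 0.389 for each) and -0.31 with Siglech (adjusted permutation p = 0.521), and Spearman's rho was -0.39, -0.41 and -0.34. In the same order r was -0.52, -0.62 and -0.35 without both libraries set apart, and -0.38, -0.38 and -0.02 without the 2 libraries farthest from the median of the marker sum. For the other members r over 20 libraries was -0.42 (P2ry13), -0.23 (Cx3cr1), 0.12 (Tmem119), 0.19 (Aif1), 0.40 (Csf1r) and 0.48 (Sall1). P2ry13, which was not among the 3 lower members, thus had the same r as P2ry12. The striatal sum is among 15 library measures that were set against the 9 genes. The part of this sum in the lower values was not tested.

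Tmem119, a transmembrane protein that sets microglia apart from blood-derived macrophages, lies on chr5:113793729-113800516. Control libraries held 20.8, 19.3, 21.7, 24.2 and 19.2 CPM and ICI libraries 18.6, 15.5, 20.96, 21.003 and 19.1 CPM. Melanoma libraries held 21.02, 21.8, 17.8, 19.98 and 21.4 CPM, and melanoma plus ICI libraries 18.1, 16.7, 21.8, 17.6 and 17.4 CPM. Of the melanoma plus ICI values 4 lay below every control library, and replicate 3 lay above most of them. Melanoma plus ICI (18.3 ± 2.02 CPM) against control (21.02 ± 2.05 CPM) gave -0.20 (SE 0.10, unadjusted p = 0.0557, adjusted p = 1.00 in edgeR). Unadjusted p was 0.0497 with DESeq2 size factors in edgeR, 0.0471 in DESeq2 and 0.0277 in limma voom. Without melanoma plus ICI replicate 3 the value was -0.27 (unadjusted p = 0.0111 in edgeR), and without control replicate 4 it was -0.14 (unadjusted p = 0.147 in edgeR). Against melanoma it was -0.15 (unadjusted p = 0.128 in edgeR), and -0.22 (unadjusted p = 0.0332, adjusted p = 0.525 in edgeR) without melanoma plus ICI replicate 3.

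Cx3cr1, the receptor for the neuronal chemokine fractalkine, is annotated at chr9:119901616-120069879. It measured 40.4, 44.5, 34.8, 32.4 and 41.8 CPM in control and 38.4, 33.5, 40.3, 38.0 and 38.2 CPM in ICI. It measured 37.8, 38.2, 34.2, 37.0 and 35.5 CPM in melanoma and 29.1, 38.9, 37.2, 37.9 and 35.99 CPM in melanoma plus ICI. The lowest value in control and the lowest with melanoma plus ICI were the 2 libraries set apart. Melanoma plus ICI (35.8 ± 3.91 CPM) against control (38.8 ± 5.00 CPM) gave -0.11 (SE 0.09, unadjusted p = 0.222, adjusted p = 1.00 in edgeR), the smallest p of this gene. It was -0.17 (unadjusted p = 0.0590 in edgeR) without control replicate 4 and -0.06 (unadjusted p = 0.493 in edgeR) without melanoma plus ICI replicate 1. Its ligand Cx3cl1 was measured at 547 ± 31.2 CPM (control), 539 ± 40.7 CPM (ICI), 532 ± 26.4 CPM (melanoma) and 520 ± 83.4 CPM (melanoma plus ICI).

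Csf1r, the receptor that microglia need to survive, lies on chr18:61105572-61132149. Control libraries gave 84.1, 89.3, 79.0, 70.9 and 82.3 CPM and ICI libraries 82.5, 80.1, 82.8, 86.1 and 79.5 CPM. Melanoma libraries gave 83.4, 85.6, 82.1, 83.8 and 91.4 CPM, and melanoma plus ICI libraries 73.6, 80.1, 99.7, 77.9 and 76.0 CPM. Replicate 3 of the melanoma plus ICI group was the highest of all 20 and control replicate 4 the lowest. Melanoma (85.2 ± 3.66 CPM) against control (81.1 ± 6.82 CPM) gave 0.07 (SE 0.08, 95% interval -0.09 to 0.24, unadjusted p = 0.371, adjusted p = 0.877 in edgeR). Without control replicate 4 it was 0.02 (SE 0.07, unadjusted p = 0.790 in edgeR). Melanoma plus ICI against melanoma gave -0.07 (unadjusted p = 0.413 in edgeR), and -0.14 (unadjusted p = 0.0458, adjusted p = 0.543 in edgeR) without melanoma plus ICI replicate 3. Csf1r shares 871 exon bases (17.8% of its exons) with Hmgxb3 on the opposite strand, whose counts came to 59.1% of its own. Strand use in the counting is not given in the sources used here, so reads from the shared bases could not be assigned. The ligands of the receptor were measured at 31.0 ± 6.21 CPM (Csf1) and 40.0 ± 9.07 CPM (Il34) in control. Csf1 stood at 33.2 ± 5.29, 32.1 ± 2.34 and 30.6 ± 1.62 CPM, and Il34 at 38.7 ± 6.76, 42.3 ± 3.99 and 43.0 ± 4.78 CPM, in ICI, melanoma and melanoma plus ICI.

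Sall1, the transcription factor that keeps microglia in their resting identity, lies on chr8:89027235-89044162, minus strand. Control libraries measured 24.6, 22.8, 21.9, 16.8 and 26.6 CPM and ICI libraries 24.0, 25.4, 21.2, 27.5 and 24.6 CPM. Melanoma libraries measured 25.5, 23.3, 28.0, 22.9 and 26.6 CPM, and melanoma plus ICI libraries 18.7, 23.0, 27.4, 25.7 and 19.9 CPM. The lowest values of all were the 2 libraries set apart, and the order of the groups was unlike that of P2ry12, with melanoma highest (25.3 ± 2.15 CPM) and control lowest (22.5 ± 3.68 CPM). The place of control rested on replicate 4, without which its mean was 23.97 CPM, above the 22.9 CPM of melanoma plus ICI. Its smallest p was that of the interaction, at -0.26 (SE 0.17, unadjusted p = 0.136, adjusted p = 0.516 in edgeR). It was -0.16 without control replicate 4, -0.10 without both libraries set apart and -0.10 with 1 surrogate variable.

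Aif1, which encodes the actin-binding protein IBA1 used to stain microglia, lies on chr17:35170991-35176068. Control libraries measured 2.78, 2.76, 2.69, 5.17 and 2.75 CPM and ICI libraries 3.73, 2.03, 3.81, 3.21 and 2.84 CPM. Melanoma libraries measured 2.77, 3.41, 3.68, 2.84 and 3.34 CPM, and melanoma plus ICI libraries 3.78, 3.01, 3.72, 2.76 and 3.43 CPM. In control, 4 libraries lay within 2.69 to 2.78 CPM and replicate 4 far above them. Melanoma plus ICI against ICI gave 0.10 (SE 0.20, unadjusted p = 0.634, adjusted p = 0.879 in edgeR), its smallest p. It turned to -0.038 with 1 surrogate variable and to -0.030 without ICI replicate 2. Against control the values were -0.05 (ICI), -0.01 (melanoma) and 0.05 (melanoma plus ICI). Without control replicate 4 they were 0.18, 0.22 and 0.28 in the same order (unadjusted p = 0.289, 0.205 and 0.109 in edgeR). With as few as 46 counts in a library, Aif1 was the least precisely measured member.

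The 9 genes did not all vary in 1 direction over the 20 libraries. Of 36 pairs, 21 had a Pearson r of log2 CPM above 0 and 15 below 0, with a median r of 0.13 and a range from -0.82 to 0.86. By permutation (100000 resamples, two-sided, Benjamini-Hochberg over 36 pairs), 4 pairs passed an adjusted p of 0.05 by r and 2 by Spearman's rho. P2ry12 and Gpr34 rose and fell together, with r = 0.86 (permutation p = 2.00e-05, adjusted 0.00072) and rho = 0.80 (permutation p = 4.00e-05, adjusted 0.00144, n = 20). Leaving out the 2 libraries farthest from the P2ry12 median gave r = 0.69 (permutation p = 0.00138, n = 18), and leaving out the 2 libraries set apart gave 0.72 (permutation p = 0.00088). As deviations from the group means r was 0.85, and with the length trend removed 0.78. P2ry12 and its chromosomal neighbour P2ry13 had r = 0.38 (adjusted permutation p = 0.197) and rho = 0.49 (adjusted permutation p = 0.206), and the difference between these correlations was not tested.

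Sall1 moved against Gpr34, with r = -0.82 (permutation p = 5.00e-05, adjusted 0.0009) and rho = -0.78 (permutation p = 0.00015, adjusted 0.0027, n = 20). The 2 libraries farthest from the Sall1 median were the 2 set apart, and without them r was -0.60 (permutation p = 0.00845, n = 18). As deviations from the group means r was -0.82, and with the length trend removed -0.73. Csf1r and Sall1 had r = 0.68 (adjusted permutation p = 0.0137) and rho = 0.48 (adjusted permutation p = 0.206). Without the 2 libraries farthest from the Csf1r median r was 0.53 (permutation p = 0.0247, n = 18), and without the 2 set apart 0.44 (permutation p = 0.0636, n = 18). P2ry12 and Sall1 had r = -0.65 (adjusted permutation p = 0.0279) and rho = -0.49 (adjusted permutation p = 0.206), and -0.39 (permutation p = 0.105, n = 18) without the 2 libraries farthest from the P2ry12 median, on which it rested. With the length trend removed, 2 pairs passed in place of 4, and as deviations from the group means 6 pairs did.

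**Figure D3:**
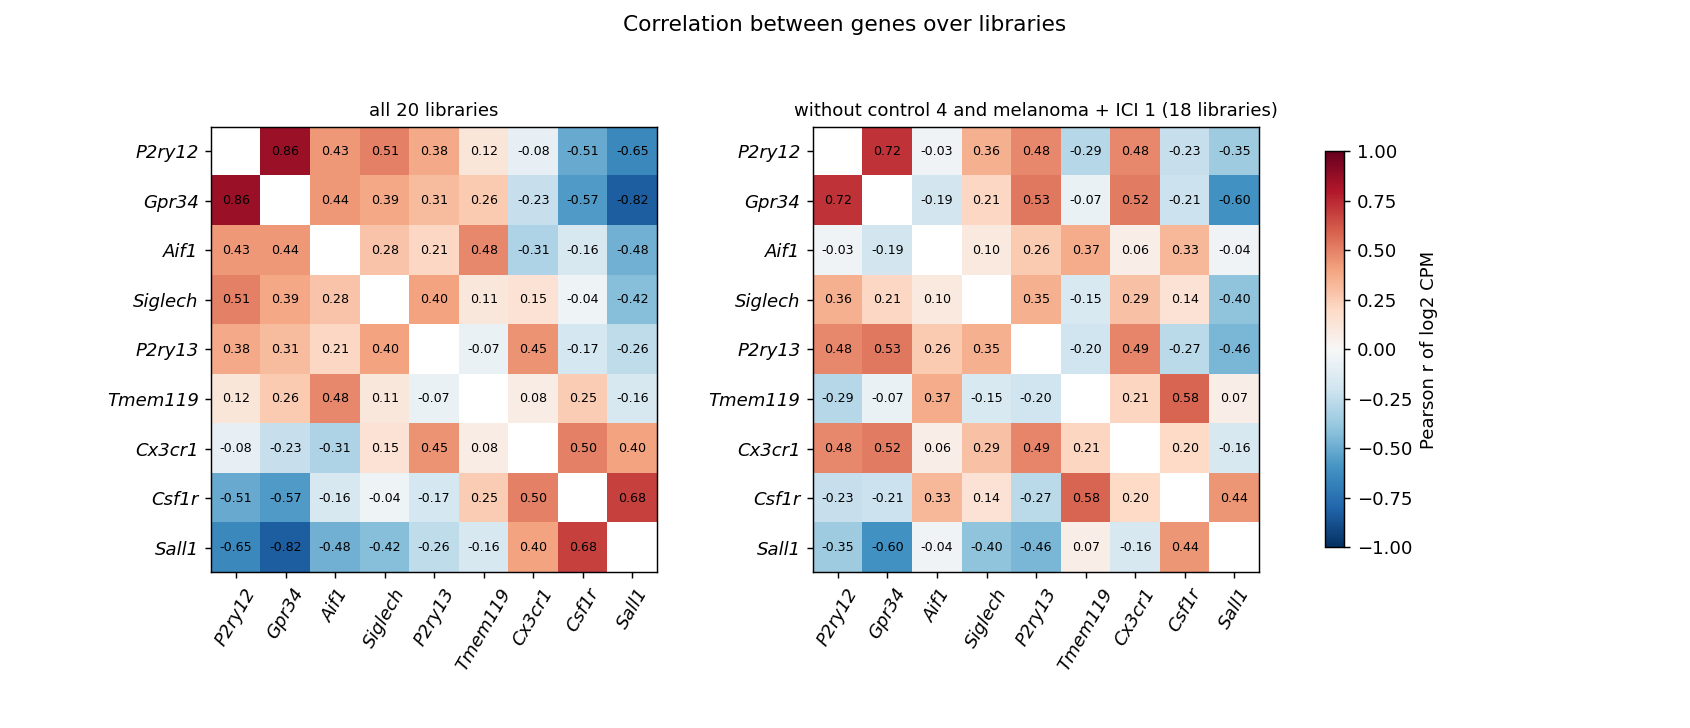
Pearson r of log2 CPM for each pair of the 9 genes (colour and number), over all 20 libraries on the left and over 18 libraries on the right, where control replicate 4 and melanoma plus ICI replicate 1 are left out. P2ry12 with Gpr34 stays at 0.72 and Gpr34 with Sall1 at -0.60 on the right, while P2ry12 with Sall1 goes from -0.65 to -0.35.

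Gene levels were also set against the gene-length slope of their library. Over the 20 libraries the r with that slope was -0.78 for Gpr34, -0.69 for P2ry12, -0.68 for Aif1, 0.76 for Sall1, 0.60 for Csf1r and 0.51 for Cx3cr1. Tmem119 (-0.36), Siglech (-0.31) and P2ry13 (-0.02) were nearer to 0. In a family of 135 relations, 9 genes against 15 library measures, 0 passed after adjustment (smallest adjusted permutation p of r = 0.0513). Spearman's rho with the slope was -0.43 for Gpr34 and 0.42 for Sall1 (adjusted permutation p = 0.516 for each). Without the 2 libraries set apart the values were -0.23 for Gpr34, -0.32 for P2ry12, -0.35 for Aif1, 0.29 for Sall1, 0.18 for Csf1r and -0.20 for Cx3cr1, so the larger values of r rested on those libraries. Sall1, Csf1r and Cx3cr1, with the positive values, have summed exon lengths of 5265, 4885 and 4505 bases. The 6 others measure 1532 to 3383 bases.

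**Figure D4:**
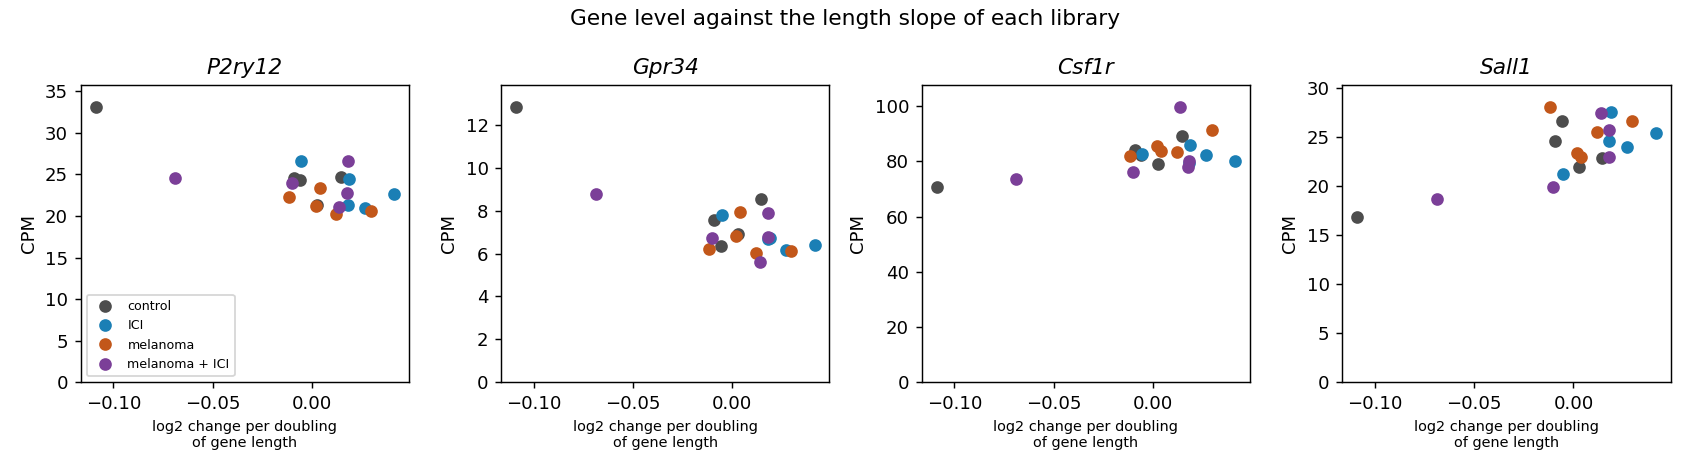
Level in CPM (vertical axis, from 0) of P2ry12, Gpr34, Csf1r and Sall1 against the length slope of the library, in log2 change per doubling of gene length, with 1 point per library coloured by group. The 2 points on the far left, at -0.11 and -0.07, are control replicate 4 and melanoma plus ICI replicate 1; Gpr34 and P2ry12 are highest in the first of them and Sall1 and Csf1r are lowest in it.

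Among 15466 tested non-member genes that have a symbol and average 1 CPM or more, likeness was measured as Pearson r of log2 CPM with the members' score, the mean of the 9 standardised values, over 20 libraries. The 10 highest were Btbd17 (r = 0.70), E430018J23Rik (0.66), Irf8 (0.64), Hic2 (0.60), Tfap4, Emid1, Pax6 and Gm44891 (0.59 each), Dok1 and Rab34 (0.58 each). With the length trend removed, Hic2 had r = 0.47 (rank 134 of the 15466 genes) and Pax6 r = 0.29 (rank 1307). Irf8, a transcription factor of macrophages and microglia, had group means of 6.71 ± 0.467 (control), 6.11 ± 0.422 (ICI), 5.98 ± 0.286 (melanoma) and 6.46 ± 0.570 CPM (melanoma plus ICI). At the other end stood Slc19a2 (r = -0.74), Mier3 (-0.69), Zfp607b (-0.68), Taf2 (-0.64) and Dnajc28 (-0.64). The genes named at both ends are the extremes of 15466 values over 20 libraries, and whether they exceed chance was not tested. Members themselves had r with the score from -0.19 (Sall1) to 0.62 (Siglech), each being part of it.

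Partners of the members in signalling, 12 genes that include the ligands Csf1, Il34 and Cx3cl1 and the TGF-beta pathway, were all tested, and edgeR called 0 in all 6 comparisons. Tgfb1, the cytokine that maintains the homeostatic state, had the smallest p of the list. It measured 5.52 ± 0.662 CPM in control and 4.46 ± 0.378 CPM in ICI (SD, n = 5 each). All ICI values lay below all control values (highest 4.94, lowest 4.97 CPM), a separation in either direction being seen for 0.885% of all tested genes. ICI against control gave -0.31 (SE 0.10, unadjusted p = 0.00800, adjusted p = 0.766 in edgeR). Of 10 transcription factors of microglia, 10 were tested and 0 called. Sall3, a relative of Sall1, was named by the same rule, at 7.71 ± 0.434 CPM in control and 10.5 ± 1.78 CPM in melanoma (log2 fold change 0.44, SE 0.15, unadjusted p = 0.00890, adjusted p = 0.813 in edgeR).

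Another 26 microglia-enriched genes, among them Fcrls, Olfml3 and the complement genes C1qa, C1qb and C1qc, had 0 calls by edgeR as well. For ICI against control their median was -0.16, with 24 of 26 genes below 0 and 6 lower at an unadjusted p under 0.05 (background 3.15% lower). For melanoma against control it was -0.14, with 20 of 26 below 0 and 5 lower (background 2.41%). The interaction had a median of 0.28, with 4 of 26 below 0 and 7 higher (background 5.99% higher). Melanoma plus ICI against control had a median of -0.08, with 21 of 26 below 0 (all genes 49.3%) and 0 at an unadjusted p under 0.05 (background 2.38%). Against melanoma the median was 0.09 (8 of 26 below 0, all genes 46.5%), and against ICI 0.13 (6 of 26, all genes 45%). Without both libraries set apart these 2 medians were 0.02 (10 of 26 below 0) and 0.07 (5 of 26). The comparisons with control and the interaction rested in part on control replicate 4. Without it the median was -0.07 for ICI against control (20 of 26 below 0, 2 lower, 2.54% of all genes lower), -0.01 for melanoma against control (14 of 26 below 0, 3 lower, 2.05%) and 0.14 for the interaction (9 of 26 below 0, 6 higher, 4.98% higher), the last being 0.10 without both libraries set apart. Melanoma plus ICI against control turned to 0.02 (12 of 26 below 0) without control replicate 4. Endothelial markers, 1 of 14 marker lists, were lower in ICI, their 5 genes summing to 147 to 189 CPM against 197 to 238 CPM in control. The sums did not overlap, and 0.885% of single genes were separated in this comparison. In melanoma and in melanoma plus ICI the endothelial markers summed to medians of 185 and 191 CPM. The 6 meningeal markers had median sums of 273 CPM (control), 132 CPM (ICI), 153 CPM (melanoma) and 212 CPM (melanoma plus ICI). The 6 choroid plexus markers had medians of 2507, 714, 425 and 2167 CPM in the same order of groups, with overlapping ranges. Both lists were thus lower in ICI and in melanoma than in control and higher again with melanoma plus ICI, by their medians, and the part of the 3 marker lists in the result was not tested. Olfml3, a secreted protein of microglia, had the smallest p, with an interaction of 0.55 (SE 0.16, unadjusted p = 0.00242, adjusted p = 0.406 in edgeR). Its group means were 17.5 ± 2.80 (control), 14.4 ± 1.00 (ICI), 13.5 ± 1.81 (melanoma) and 16.3 ± 1.62 CPM (melanoma plus ICI), which is the same order of groups as for Irf8.

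Genes of reactive microglia were listed as the counterpart of the homeostatic set. Of 15, 10 were tested, and Cst7, Itgax, Clec7a, Ccl3 and Ccl4 had too few counts. EdgeR called 0 in all 6 comparisons. For melanoma plus ICI against control their median was -0.05, with 6 of 10 below 0 (all genes 49.3%) and 1 higher at an unadjusted p under 0.05 (background 1.1%). The median was 0.0024 without control replicate 4. For ICI against control it was -0.23, with 8 of 10 below 0 and 3 lower at an unadjusted p under 0.05 (background 3.15%). Melanoma against control gave -0.09 (7 of 10 below 0, 2 lower, background 2.41%), and the interaction gave 0.26 (1 of 10 below 0, 3 higher, background 5.99%). Melanoma plus ICI gave 0.23 against ICI (3 of 10 below 0, 3 higher, background 4.12%). Against melanoma it gave 0.09 (3 of 10 below 0, 2 higher, background 2.63%). Without both libraries set apart the medians of these last 2 comparisons were 0.22 and 0.05. Cd63, a lysosomal membrane protein that many cell types express, had the smallest p, with an interaction of 0.95 (SE 0.23, unadjusted p = 0.000578, adjusted p = 0.253 in edgeR, and 0.0404 in DESeq2, within a range of 0.0404 to 0.527 over 28 alternatives). Cd63 averaged 93.1 ± 16.9 (control), 64.3 ± 10.4 (ICI), 68.0 ± 11.8 (melanoma) and 90.5 ± 22.9 CPM (melanoma plus ICI). The median sums of meningeal and choroid plexus markers given above were likewise high in control and melanoma plus ICI and low in the other groups, and their part in the values of Cd63 and the reactive list was not tested.

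Other macrophages and blood cells that share some of these genes were looked for by their markers. Blood monocyte and neutrophil markers summed to between 0.214 and 1.64 CPM over 7 genes, with Ly6g at 3 counts in all 20 libraries and Ccr2 at 87. Their range was 0.228 to 0.923 CPM (control), 0.214 to 0.889 CPM (ICI), 0.555 to 1.26 CPM (melanoma) and 0.356 to 1.64 CPM (melanoma plus ICI). Border macrophage markers summed to 17.3 to 41.6 CPM (control), 19.2 to 31.6 CPM (ICI), 25.0 to 46.9 CPM (melanoma) and 24.6 to 40.7 CPM (melanoma plus ICI), mostly from Stab1. Of the 10 border macrophage markers 0 were at 0 in all libraries, and Cd163, Lyve1 and Mrc1 averaged 1.93, 0.753 and 3.21 CPM. These cells can express Csf1r, Cx3cr1 and Aif1, and their part in the levels was not tested.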

How the data were processed

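Raw counts were deposited, 1 table per library, in the layout that featureCounts writes per the file headers, with coordinates, strand and summed exon length for 49671 genes. Per the submitters' processing notes, STAR 2.5.2b and DESeq2 1.16.1 were used; the counting program, its strand setting, the build and the annotation are not given in the sources used here. Of the identifiers, 49412 occur in GENCODE M21 (GRCm38) and 45214 have the same start and end there, Csf1r not among them. Symbols come from GENCODE M21 and coordinates from the deposited tables. The chi-square statistic per gene between libraries of a group was 10.5 to 120 over 40 pairs, so no library was a copy of another in its group; pairs from different groups were not compared.

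Genes were filtered with filterByExpr (minimum count 10, minimum total 15), scaled by TMM and fitted over all 20 libraries with edgeR 4.0.16 (robust quasi-likelihood, 1 mean per group, R 4.3.3), with Benjamini-Hochberg adjustment over 18427 genes. The script was tested on simulated counts. Log2 CPM used a prior count of 2. Correlations used 100000 permutations. Alternatives were DESeq2 size factors, DESeq2 1.42.0, limma voom 3.58.1, no filter, only the groups compared, a replicate block, 1 surrogate variable (sva 3.50.0), leaving out the 2 libraries set apart or each library in turn, and, added after the data were seen, removal of each library's length trend (lowess, span 0.3), correlations without those 2 libraries, and members' spread and list counts without single libraries. The members and lists were chosen with earlier results of these data known. All members are described, with the fold change of the smallest p for each and of each unadjusted p under 0.05. Of each list the gene with the smallest p is named, and of other genes the 10 most and 5 least like the members. Further marker lists (endothelium, oligodendrocytes and their precursors, neocortex, striatum, red blood cells, meninges and choroid plexus) served as summed levels, of which choroid plexus varied most (19.9 to 6471 CPM).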

Additional observations from a re-analysis of the deposited data

Results flagged for a closer look

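Each of the 9 genes was examined in each of the 4 groups for a single library far from the other 4, by the gap to the nearest library as a share of the group's range, with a critical value of 0.71. Of 36 such groups 4 passed, and chance gives about 1 in 20. P2ry12 in control had its highest value in replicate 4, 33.1 CPM against 24.7 CPM for the next library (gap ratio 0.719). Aif1 in control was also highest in replicate 4, with 5.17 CPM against 2.78 CPM (gap ratio 0.962). In the melanoma plus ICI group, replicate 3 was highest for Tmem119, with 21.8 CPM against 18.1 CPM (gap ratio 0.734), and for Csf1r, with 99.7 CPM against 80.1 CPM (gap ratio 0.752). Control replicate 4 has a length slope of -0.11, the lowest of the 20, and melanoma plus ICI replicate 3 one of 0.01, within the range of the rest.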

How the results depend on the processing

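Over 29 alternatives (28 for the interaction, where using only the groups compared was not run), 0 of the 9 genes passed the threshold in any comparison, the lowest adjusted p being 0.247. The number of genes past the threshold, 0 in all 6 comparisons, rose under some settings. With DESeq2 it was 47 for the interaction, 1 for ICI against control, 8 for melanoma against control and 9 for melanoma plus ICI against ICI. With limma voom it was 1 for melanoma against control, 25 for melanoma plus ICI against melanoma and 19 for the interaction. With 1 surrogate variable it was 30 for the interaction, 2 for ICI against control and 1 for melanoma plus ICI against ICI. It was 3 for melanoma against control when only those groups were fitted and 1 for the interaction without the 2 libraries set apart. Leaving out each library in turn gave 0 to 3 for melanoma against control, 0 to 12 for melanoma plus ICI against melanoma and 0 to 11 for the interaction, the highest each time without melanoma plus ICI replicate 3, and 0 to 0 for the others. The members' median interaction ranged from -0.013 (without ICI replicate 2) to 0.19. Aif1 in melanoma plus ICI against ICI turned to -0.038 with 1 surrogate variable and ranged from -0.030 to 0.17 over the libraries left out, turning without ICI replicate 2. The pairs of genes correlated past the threshold went from 4 to 2 with the length trend removed, and to 6 as deviations from the group means. For these changes the cause was not tested.

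With the replicate number as a block, 0 genes passed in each comparison, and P2ry12 in melanoma against control was -0.24 (unadjusted p = 0.0289 in edgeR). Members at an unadjusted p under 0.05 there were 2 in place of 3. Libraries with the same number had correlated deviations from -0.35 to 0.53, and 6 of 20 libraries correlated best with their own number. Replicates 4 of ICI, melanoma and melanoma plus ICI correlated at 0.34 to 0.40, but since other pairs lay below 0 the numbers were not taken to pair the libraries. Depth limited Aif1 most, with as few as 46 counts in a library.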
